A study of Mus musculus with 7 samples.

Results

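The 48 genes described here encode collagens, laminins and the glycoproteins and proteoglycans that are laid down with them in the extracellular matrix. They were taken from a fixed list of gene symbols and looked up in the table of RPKM values (reads scaled by gene length and by library size, so levels are per length), where 43 of the 48 had a row among 11642. Col11a1, Col15a1, Lum, Fbn2 and Eln had no row, and because the authors removed genes with few reads the table gives no value for them. Lama4 and Fmod had a row but a mean under 0.5 RPKM, which left 41 members among the 11086 genes tested. By role the list holds 7 fibrillar collagens, 15 basement membrane genes, 4 small proteoglycans, 6 other collagens, 9 genes of elastic fibres and cross-linking, and 7 adhesive and matricellular proteins.

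Fibrillar collagens assemble as triple helices and pack into the tensile fibres of connective tissue, whereas collagen IV, laminins, nidogens and perlecan form the sheet-like basement membrane that surrounds each muscle fibre. Small leucine-rich proteoglycans such as decorin sit on collagen fibrils and regulate their diameter. Cultured myoblasts secrete matrix of both kinds, and the make-up of the matrix is known to change as they leave the cell cycle and fuse.

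The values come from C2C12 cells, a mouse myoblast line whose cells fuse into multinucleate myotubes once serum is withdrawn, collected on day 2 of differentiation. The control group was 2 samples transfected with a scramble siRNA (si-SCR 1 and 2), and the depleted group was 2 samples transfected with siRNA #1 against lnc-SMaRT (si-SMaRT 1 and 2), a long non-coding RNA of differentiating muscle cells. All 4 samples are 1 cell line and the depletion used 1 siRNA. The samples of a group were separate cell populations according to the study. The p-values measure the spread between these samples. The series also holds RNA pulled down from C2C12 cells with probes against lnc-SMaRT, RNA pulled down with probes against LacZ, and the input, in 1 library each. The effective library sizes behind the RPKM values were 11291255 to 14312935 reads, the smallest in si-SMaRT 1. In the study's read counts, the removal of rRNA and tRNA reads took a much larger part of si-SMaRT 1 than of any other of the 4 samples. The part of this difference in the results was not tested. Lnc-SMaRT itself was 19.1 and 15.9 RPKM in si-SCR 1 and 2 and 2.88 and 3.65 RPKM in si-SMaRT 1 and 2 (log2 fold change -2.39 ± 0.28 (SE), limma adjusted p = 0.000882). The 2 si-SMaRT samples differed from each other along the GC content of genes, with a Spearman rho of -0.845 over 10864 genes between GC content and the difference of si-SMaRT 2 and si-SMaRT 1. Every result below is therefore given with the value of each sample, and the calls are given again without each si-SMaRT sample.

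Of the 41 members tested, 2 rose in si-SMaRT and 0 fell (limma on log2(RPKM + 0.1), Benjamini-Hochberg adjusted p under 0.05 over all genes tested). Over all tested genes 0.505% were called, 0.18% as higher and 0.325% as lower. The 2 members were the basement membrane linker gene Nid2 and the fibril-associated collagen gene Col12a1. At an unadjusted p under 0.05, 14 members were higher and 0 lower, where the shares of all genes were 3.49% and 5.6%. The log2 fold change was above 0 for 29 of 41 members, against 52.3% of all genes, and its median was 0.33 over the members and 0.02 over all genes. In 18 members both si-SMaRT samples lay above both si-SCR samples, a position that 20.2% of all genes held. Both lay below both si-SCR samples in 2 members, Postn and Col8a1, against 20.4% of all genes.

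The members' values differed between the 2 si-SMaRT samples. In si-SMaRT 1, 35 of 41 members lay above both si-SCR samples (41.3% of all genes did), and in si-SMaRT 2, 19 of 41 did (43.4% of all genes). For 10 members si-SMaRT 1 was above and si-SMaRT 2 below both controls. They were Col5a2, Col5a3, Col18a1, Lamb2, Hspg2, Agrn, Col16a1, Fbln2, Emilin1 and Loxl1. The share of all genes with this order is not given here, so the count cannot be read as particular to the members. When si-SMaRT 1 was left out, 7 of 41 members were called higher and 5 lower, against 11.3% and 14.9% of all genes. When si-SMaRT 2 was left out, 19 were called higher and 1 lower, against 4.98% and 3.51% of all genes. The remaining si-SMaRT sample is then assumed to vary as the controls do. The members called higher both times were 5, namely Col12a1, Nid1, Nid2, Dcn and Thbs1, and 0 were called lower both times, against 1.23% and 2.01% of all genes. The 2 fits share both si-SCR samples. Without si-SCR 1, 0 members were called (0.216% of all genes) and 4 were higher at an unadjusted p under 0.05, and without si-SCR 2, 0 were called (0.271% of all genes) and 6 were higher. In these bulk samples, fewer cells of a type and less RNA per cell cannot be told apart.

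**Figure D1:**
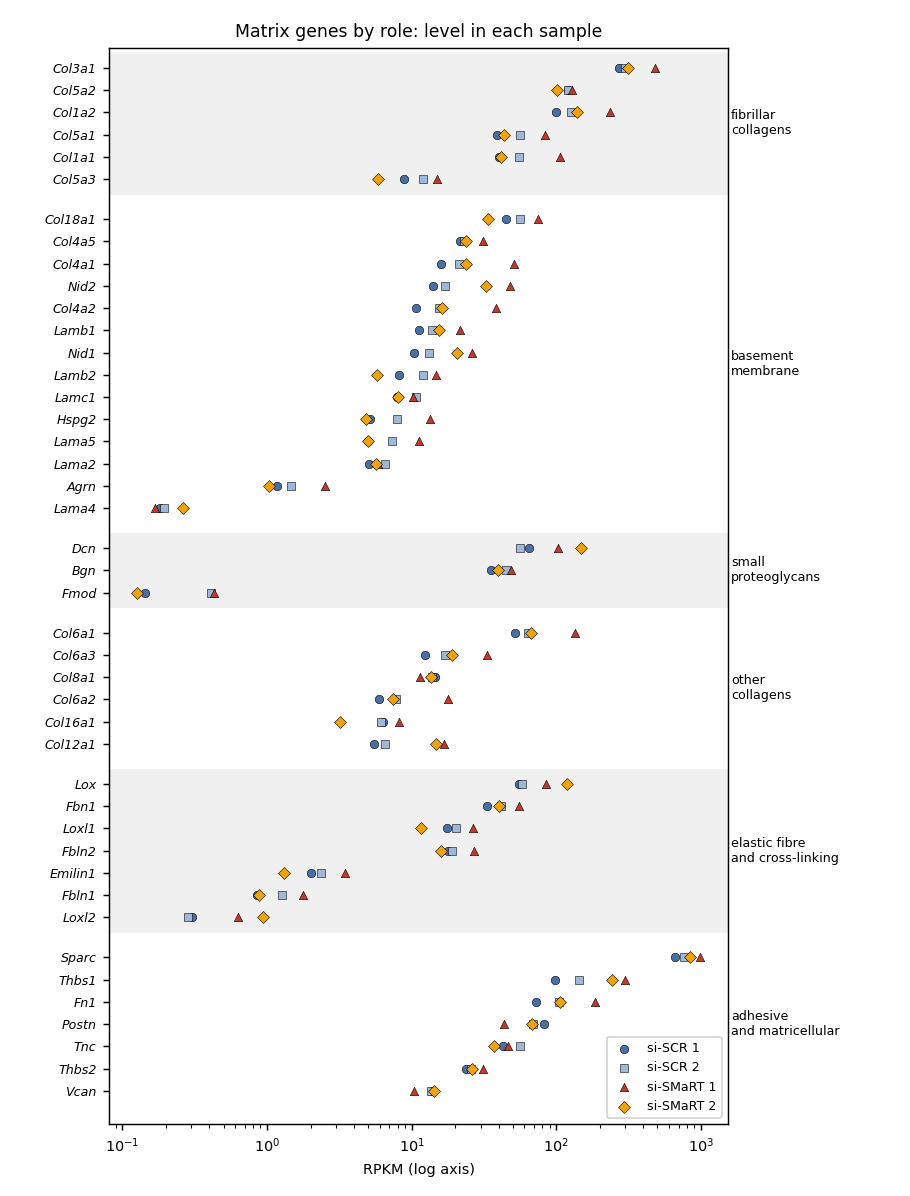
RPKM of the 43 listed members in each of the 4 samples on a log axis, grouped by role and ordered by the mean of the 2 si-SCR samples. The red triangles of si-SMaRT 1 lie to the right of both controls for 35 of the 41 tested members, and the orange diamonds of si-SMaRT 2 do so for 19.

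In the control cells the members spanned most of the range of the table, from a gene above 99.4% of its rows to one above 1.04%. Sparc, the collagen-binding matricellular protein osteonectin, was the most abundant member at 717 ± 72.1 RPKM (SD, n = 2). Col3a1 followed at 285 ± 18.2 RPKM (SD, n = 2), and these 2 genes did not overlap each other or the next gene over the control samples. Thbs1, Col5a2, Col1a2 and Fn1 followed at means of 121, 121, 113 and 88.5 RPKM, with ranges that overlapped from each to the next. The most abundant basement membrane member was Col18a1 at 50.5 ± 7.57 RPKM (SD, n = 2). Among the listed small proteoglycans the most abundant was Dcn at 60.5 ± 6.75 RPKM (SD, n = 2). Ogn, a small leucine-rich proteoglycan outside the list, was higher at 297 ± 40.9 RPKM (SD, n = 2). Laminin chains were lower, from 12.5 RPKM for Lamb1 to 0.188 RPKM for Lama4. The lowest members were Loxl2, Fmod and Lama4, each under 0.5 RPKM in the control means and with between 6 and 33 reads in a control sample.

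Among the fibrillar collagens, 6 of 7 genes were tested and 0 passed the test. At an unadjusted p under 0.05 there was 1 of 6, Col1a2, and voom and the fit with the GC trend removed also called 0. The median log2 fold change of the 6 genes was 0.41, and 4 of 6 were above 0. Col1a2, the second chain of type I collagen, was 100.1 and 126 RPKM in si-SCR 1 and 2 and 234 and 139 RPKM in si-SMaRT 1 and 2. Both si-SMaRT samples were above the controls, with si-SMaRT 2 close to si-SCR 2 (log2 fold change 0.69 ± 0.30 (SE), limma adjusted p = 0.49). Col3a1, the single chain of type III collagen, had the same order at 272 and 298 RPKM against 481 and 312 RPKM (si-SCR 1 and 2 against si-SMaRT 1 and 2, the order kept from here on; log2 fold change 0.44 ± 0.29 (SE), limma adjusted p = 0.713).

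Col1a1, the first chain of type I collagen, was 39.98 and 54.9 RPKM in si-SCR 1 and 2 and 105 and 41.6 RPKM in si-SMaRT 1 and 2. Only si-SMaRT 1 was above the controls, and si-SMaRT 2 lay between them (log2 fold change 0.50 ± 0.36 (SE), limma adjusted p = 0.743). Col5a1, the type V chain that limits fibril diameter, followed it at 39 and 56.2 RPKM against 84 and 43.8 RPKM, with si-SMaRT 2 again between the controls. Col5a2, its partner chain, was 121 and 121 RPKM against 129 and 100.5 RPKM (log2 fold change -0.0858 ± 0.27 (SE), limma adjusted p = 0.96). Col5a3, the least abundant fibrillar chain, was 8.83 and 12 RPKM against 14.9 and 5.83 RPKM (log2 fold change -0.14 ± 0.36 (SE), limma adjusted p = 0.946). For both of these genes si-SMaRT 1 was the highest sample and si-SMaRT 2 the lowest, so the groups overlapped.

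The basement membrane genes gave 1 call among 13 tested, Nid2. The 4 genes Nid2, Nid1, Col4a2 and Col4a1 had an unadjusted p under 0.05 and a log2 fold change above 0, and 0 genes had one below 0. Of the 13 genes, 10 were above 0, and the median was 0.31. Nidogens 1 and 2 are the linkers that tie the laminin network to the collagen IV network. Nid2 (chr14:19751265-19811787, plus strand, GRCm38) was 14.1 and 17.1 RPKM in si-SCR 1 and 2 and 47.9 and 32.6 RPKM in si-SMaRT 1 and 2, from 872, 1179, 2643 and 2281 reads. Both si-SMaRT samples stood well above both controls. The mean was 40.3 ± 10.8 RPKM (SD, n = 2) in si-SMaRT and 15.6 ± 2.1 RPKM (SD, n = 2) in si-SCR, a ratio of 2.58 (log2 fold change 1.34 ± 0.28 (SE), limma adjusted p = 0.03999). The call ended without the filter on low values (adjusted p = 0.0542), with quantile normalization (0.0756) and without the trend in the prior variance (0.0655), as well as without either si-SCR sample. Over the 15 alternatives the adjusted p ran from 3.45e-12 to 1.00 and the log2 fold change from 1.07 to 1.62. Exons of Nid2 share 437 bases, 8.45% of their length, with Rtraf on the other strand, and the strand setting of the counting is not given in the sources used here.

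Nid1 (chr13:13437551-13512269, plus strand, GRCm38) was 10.4 and 13.2 RPKM in si-SCR 1 and 2 and 26.1 and 20.6 RPKM in si-SMaRT 1 and 2, with no overlap of the groups. It did not pass the test (log2 fold change 0.98 ± 0.27 (SE), limma adjusted p = 0.163), and it passed once the GC trend was removed (adjusted p = 0.0295). The ratio of Nid2 to Nid1 was 1.35 and 1.29 in si-SCR and 1.83 and 1.59 in si-SMaRT, higher in both si-SMaRT samples.

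Col4a1 and Col4a2 encode the 2 chains of the ubiquitous collagen IV network and lie head to head on mouse chromosome 8. Col4a1 runs on the minus strand (chr8:11198423-11312826, GRCm38) and Col4a2 on the plus strand (chr8:11312805-11449287), so that their first exons share 22 bases. Because the pair is known to be transcribed in opposite directions from a shared promoter region, the sequence around both start sites is shown here, from RefSeq on GRCm38.p6. The Nid1 promoter is shown beside it as the other promoter at hand among the 4 basement membrane genes with an unadjusted p under 0.05. Each window runs from 250 bases before to 50 bases after the start site of the gene, written 5′ to 3′ on the strand of that gene. Capitals mark matches to CCAAT or GGGCGG on either strand, and TATAAA, which was also searched, had no match in either window.
Col4a1 (chr8:11312777-11313076, minus strand): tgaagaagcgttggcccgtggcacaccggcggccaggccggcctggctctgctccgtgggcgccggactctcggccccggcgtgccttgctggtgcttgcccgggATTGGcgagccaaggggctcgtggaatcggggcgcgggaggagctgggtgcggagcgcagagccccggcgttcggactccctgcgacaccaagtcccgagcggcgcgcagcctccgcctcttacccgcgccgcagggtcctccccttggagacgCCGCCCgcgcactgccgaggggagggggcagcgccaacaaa
Nid1 (chr13:13437352-13437651, plus strand): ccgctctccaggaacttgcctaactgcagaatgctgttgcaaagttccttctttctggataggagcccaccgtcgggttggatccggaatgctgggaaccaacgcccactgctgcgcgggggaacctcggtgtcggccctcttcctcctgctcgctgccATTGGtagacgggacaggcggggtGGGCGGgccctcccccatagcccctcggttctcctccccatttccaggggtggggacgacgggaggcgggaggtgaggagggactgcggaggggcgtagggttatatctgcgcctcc
In the Col4a1 window, whose GC content is 74.0%, the start site of Col4a2 is base 272 from the 5′ end and that gene reads in the opposite direction. The matches begin at base 106 (ATTGG, the reverse complement of CCAAT) and at base 260 (CCGCCC, the reverse complement of GGGCGG). In the Nid1 window they begin at base 160 (ATTGG) and base 184 (GGGCGG), and no matches overlap one another. Promoters were in the reference table for 33 of the 48 members, which had 39 windows. Nid2, Col12a1, Dcn, Lox, Thbs1 and Col1a1 were among those without one. CCAAT was in 38.5% of the members' windows and 37.4% of all 32851 windows, TATAAA in 12.8% and 13.6%, and GGGCGG in 66.7% and 35.7%. The median GC content of all windows was 52.7%, against 74.0% in the Col4a1 window and 64.7% in the Nid1 window. GGGCGG holds only G and C, and its shares were not compared at equal GC content. A match is a description of the letters and not a binding site.

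Col4a1 was 16 and 21.2 RPKM in si-SCR 1 and 2 and 51.3 and 23.9 RPKM in si-SMaRT 1 and 2. Col4a2 was 10.8 and 15.5 RPKM in si-SCR 1 and 2 and 38.5 and 16.1 RPKM in si-SMaRT 1 and 2. For both genes si-SMaRT 1 was far above the controls and si-SMaRT 2 just above the higher control. Neither passed the test, at a log2 fold change of 0.92 ± 0.33 (SE) for Col4a1 (limma adjusted p = 0.319) and 0.94 ± 0.35 (SE) for Col4a2 (0.344). With the GC trend removed both passed, at adjusted p = 0.025 and 0.0167. The ratio of Col4a1 to Col4a2 varied little, from 1.33 in si-SMaRT 1 to 1.48 in si-SMaRT 2, with 1.48 and 1.37 in the controls. The highest and lowest ratio thus differed by 1.11 times, while the level of each gene differed 3.21 times and 3.57 times over the same 4 samples. Col4a5, a chain of a more restricted collagen IV network encoded on the X chromosome, was 21.5 and 23 RPKM against 31.3 and 23.6 RPKM (log2 fold change 0.29 ± 0.27 (SE), limma adjusted p = 0.824).

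Laminins are heterotrimers of an alpha, a beta and a gamma chain. Lamb1, the beta chain of the common laminins, was 11.3 and 13.8 RPKM in si-SCR 1 and 2 and 21.7 and 15.5 RPKM in si-SMaRT 1 and 2, with both si-SMaRT samples above the controls (log2 fold change 0.55 ± 0.28 (SE), limma adjusted p = 0.58). Lamc1, the gamma chain that pairs with it, was 7.9 and 10.8 RPKM against 10.3 and 8.11 RPKM (log2 fold change -0.016 ± 0.28 (SE), limma adjusted p = 0.991). Its 2 si-SMaRT samples lay between the controls, and the ratio of Lamc1 to Lamb1 was 0.701 and 0.783 in si-SCR and 0.474 and 0.524 in si-SMaRT. Lamb2, the beta chain enriched at the neuromuscular junction, was 8.21 and 12 RPKM against 14.8 and 5.79 RPKM (log2 fold change -0.0983 ± 0.36 (SE), limma adjusted p = 0.965), with si-SMaRT 1 the highest and si-SMaRT 2 the lowest sample. Lama2, the alpha chain of the muscle basement membrane, stayed between 5.09 and 6.58 RPKM in all 4 samples. Lama5 was 4.98 and 7.28 RPKM against 11.2 and 5.01 RPKM, and Lama4, which was not tested, was 0.183 and 0.193 RPKM against 0.169 and 0.261 RPKM.

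The heparan sulphate proteoglycans of the basement membrane separated the 2 si-SMaRT samples. Hspg2, which encodes perlecan, was 5.16 and 7.89 RPKM in si-SCR 1 and 2 and 13.4 and 4.81 RPKM in si-SMaRT 1 and 2. Agrn, which encodes the synaptic organiser agrin, was 1.17 and 1.46 RPKM against 2.5 and 1.04 RPKM. Col18a1, the chain that carries endostatin at its end, was 45.1 and 55.8 RPKM against 74.9 and 33.8 RPKM (log2 fold change 0.00367 ± 0.33 (SE), limma adjusted p = 0.999). In each of these 3 genes si-SMaRT 1 was the highest and si-SMaRT 2 the lowest of the 4 samples, the order of the 10 members named earlier.

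Of the 4 small proteoglycans only Dcn and Bgn were tested, and 0 passed the test, with Dcn alone at an unadjusted p under 0.05. Dcn, which encodes decorin (chr10:97479609-97518143, plus strand, GRCm38), was 65.2 and 55.7 RPKM in si-SCR 1 and 2 and 102 and 148 RPKM in si-SMaRT 1 and 2. Both si-SMaRT samples were above both controls, and unlike in the collagens above si-SMaRT 2 was the higher of the pair. The ratio of the group means was 2.07 (log2 fold change 1.03 ± 0.28 (SE), limma adjusted p = 0.142), with an adjusted p of 0.0277 once the GC trend was removed. Bgn, which encodes biglycan, the closest relative of decorin, was 35.1 and 45.1 RPKM against 49 and 39.8 RPKM (log2 fold change 0.15 ± 0.27 (SE), limma adjusted p = 0.919). Its groups overlapped. Fmod, which encodes fibromodulin, was 0.143 and 0.407 RPKM against 0.429 and 0.127 RPKM from 6 to 19 reads, too few to set the samples apart, and no value was listed for Lum, which encodes lumican.

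Among the 6 other collagens, all of them tested, 1 passed the test, Col12a1, and Col6a1, Col6a2 and Col6a3 had an unadjusted p under 0.05. Their median log2 fold change was 0.74. Col12a1, whose product binds to the surface of type I fibrils (chr9:79598991-79718831, minus strand, GRCm38), was 5.46 and 6.51 RPKM in si-SCR 1 and 2 and 16.8 and 14.7 RPKM in si-SMaRT 1 and 2. The 2 si-SMaRT samples were close to each other and both far above the controls. The mean was 15.7 ± 1.53 RPKM (SD, n = 2) against 5.99 ± 0.739 RPKM (SD, n = 2), a ratio of 2.63 (log2 fold change 1.38 ± 0.27 (SE), limma adjusted p = 0.028). Over the 15 alternatives its log2 fold change was 1.26 to 1.51 and its adjusted p 3.65e-09 to 1.00. Its call was lost with quantile normalization (adjusted p = 0.0504) and without either si-SCR sample.

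Type VI collagen forms the beaded filaments around muscle fibres from chains encoded by Col6a1, Col6a2 and Col6a3. Col6a1 was 51.8 and 64.1 RPKM in si-SCR 1 and 2 and 135 and 66.4 RPKM in si-SMaRT 1 and 2, with si-SMaRT 2 just above si-SCR 2 (log2 fold change 0.72 ± 0.32 (SE), limma adjusted p = 0.5002). Col6a3 was 12.4 and 16.9 RPKM against 33.2 and 19 RPKM (log2 fold change 0.79 ± 0.30 (SE), limma adjusted p = 0.377), in the same order. Col6a2 was 5.95 and 7.76 RPKM against 17.9 and 7.49 RPKM (log2 fold change 0.76 ± 0.35 (SE), limma adjusted p = 0.525), with si-SMaRT 2 between the controls. With the GC trend removed Col6a1 and Col6a3 passed the test at adjusted p = 0.0337 and 0.039, and Col6a2 did not (0.0661). The ratio of Col6a1 to Col6a2 was 7.52 to 8.87 and that of Col6a3 to Col6a1 0.240 to 0.286 over the 4 samples, each with overlapping groups. Col8a1, a short-chain collagen, was 14.5 and 13.8 RPKM against 11.5 and 13.5 RPKM (log2 fold change -0.18 ± 0.27 (SE), limma adjusted p = 0.895), and Col16a1, a fibril-associated collagen, was 6.38 and 6.12 RPKM against 8.2 and 3.21 RPKM (log2 fold change -0.28 ± 0.36 (SE), limma adjusted p = 0.878).

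**Figure D2:**
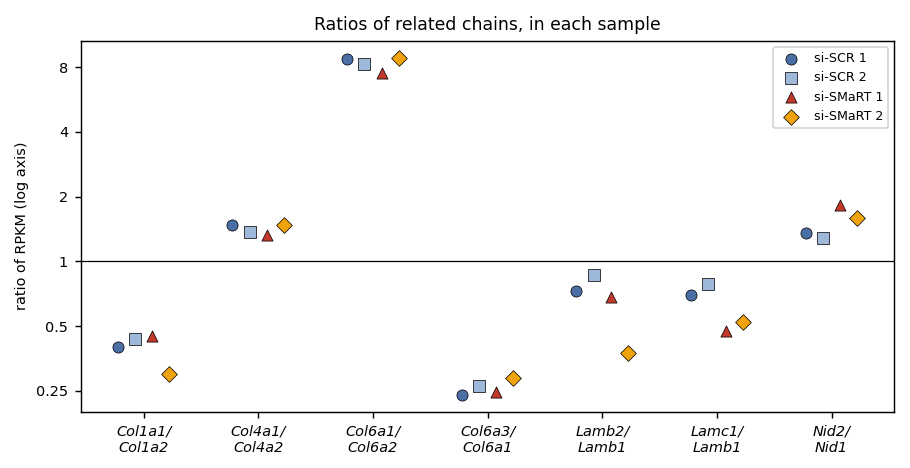
Ratio of RPKM between related chains in each of the 4 samples, on a log axis. Col4a1 over Col4a2 keeps within 1.33 to 1.48, Lamb2 over Lamb1 runs from 0.869 in si-SCR 2 down to 0.374 in si-SMaRT 2, and Lamc1 over Lamb1 is lower in both si-SMaRT samples.

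The ratio of Col1a1 to Col1a2, whose chains combine in type I collagen, was 0.399 and 0.437 in the controls, 0.450 in si-SMaRT 1 and 0.2999 in si-SMaRT 2. The GC content of the exons was 57.7% for Col1a1 and 44.8% for Col1a2. The ratio of Lamb2 to Lamb1 was 0.729, 0.869, 0.681 and 0.374 in the same order, at 58.3% and 49.2% GC. In both pairs the gene of higher GC content was lowest relative to its partner in si-SMaRT 2. The same held for Col4a2 against Col4a1 and for Col6a1 against Col6a3. It did not hold for Nid2 against Nid1, Col6a1 against Col6a2 or Lamc1 against Lamb1. The ratio of Nid2 to Nid1, at 54.1% and 48.1% GC, was 1.59 in si-SMaRT 2, above both controls. With 2 samples against 2, an exact permutation test of such a ratio cannot give a p below 0.333, so no test is given for the ratios.

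For the genes of elastic fibres and collagen cross-linking, 7 of 9 were tested and 0 passed, with Lox and Loxl2 at an unadjusted p under 0.05. Their median log2 fold change was 0.26. Lox, the lysyl oxidase that starts the cross-linking of collagen and elastin, was 54.9 and 58 RPKM in si-SCR 1 and 2 and 85.4 and 118 RPKM in si-SMaRT 1 and 2. Both si-SMaRT samples were above the controls, with si-SMaRT 2 the higher (log2 fold change 0.83 ± 0.27 (SE), limma adjusted p = 0.258), and the gene passed with the GC trend removed (adjusted p = 0.0295). Loxl1 was 17.7 and 20.1 RPKM against 26.4 and 11.7 RPKM (log2 fold change -0.10 ± 0.33 (SE), limma adjusted p = 0.961). Loxl2 had the highest ratio of all members at 2.66, but it rests on 21 and 22 reads in si-SCR and 39 and 73 reads in si-SMaRT, and its row is joined with Mir6950 (log2 fold change 1.14 ± 0.36 (SE), limma adjusted p = 0.249).

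Fbn1, which encodes the microfibril protein fibrillin-1, was 33.4 and 41.7 RPKM against 55.5 and 40.4 RPKM (log2 fold change 0.34 ± 0.27 (SE), limma adjusted p = 0.791), and 20.1% of its exon length is shared with Gm9913 on the other strand. Emilin1, a glycoprotein of elastic fibres, was 2.0 and 2.35 RPKM against 3.46 and 1.3 RPKM (log2 fold change -0.0219 ± 0.38 (SE), limma adjusted p = 0.991). Fbln2, which encodes fibulin-2, was 17.8 and 19.1 RPKM against 27 and 15.8 RPKM. Its relative Fbln1 was 0.85 and 1.26 RPKM against 1.78 and 0.88 RPKM. In Fbln2, Emilin1 and Loxl1, si-SMaRT 2 was the lowest of the 4 samples and si-SMaRT 1 the highest.

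Among the 7 adhesive and matricellular genes 0 passed the test, with Thbs1 and Fn1 at an unadjusted p under 0.05, and the median log2 fold change was 0.21. Thbs1, which encodes thrombospondin-1 (chr2:118111876-118127133, plus strand, GRCm38), was 97.9 and 144 RPKM in si-SCR 1 and 2 and 300.3 and 242 RPKM in si-SMaRT 1 and 2. Both si-SMaRT samples were above both controls, at a ratio of 2.24 between the means (log2 fold change 1.18 ± 0.29 (SE), limma adjusted p = 0.0854). It passed with voom (adjusted p = 0.0373), which called 3 members, the other two being Nid2 and Col12a1, and 0.957% of all genes. Voom called 0 members lower, against 0.659% of all genes, and its share of higher calls was 0.298%. Thbs1 also passed with the GC trend removed (adjusted p = 0.0232). Thbs2, its paralogue, was 23.6 and 25.8 RPKM against 31.3 and 26 RPKM.

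Fn1, which encodes fibronectin, was 71.9 and 105 RPKM against 186 and 107 RPKM, with si-SMaRT 2 just above si-SCR 2 (log2 fold change 0.70 ± 0.31 (SE), limma adjusted p = 0.5002). Sparc was 666 and 768 RPKM against 984 and 846 RPKM (log2 fold change 0.35 ± 0.29 (SE), limma adjusted p = 0.801). Postn, which encodes periostin, was the member with the lowest log2 fold change and was 82.3 and 69.2 RPKM against 43.8 and 67.4 RPKM (log2 fold change -0.47 ± 0.28 (SE), limma adjusted p = 0.662). Both si-SMaRT samples were below the controls, si-SMaRT 2 by little, and with the GC trend removed it passed as lower (adjusted p = 0.0367). Tnc, which encodes tenascin-C, was 42.7 and 56.3 RPKM against 46.3 and 36.9 RPKM (log2 fold change -0.25 ± 0.27 (SE), limma adjusted p = 0.857), and Vcan, which encodes the large proteoglycan versican, was 13.7 and 13.7 RPKM against 10.4 and 14.4 RPKM.

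**Figure D3:**
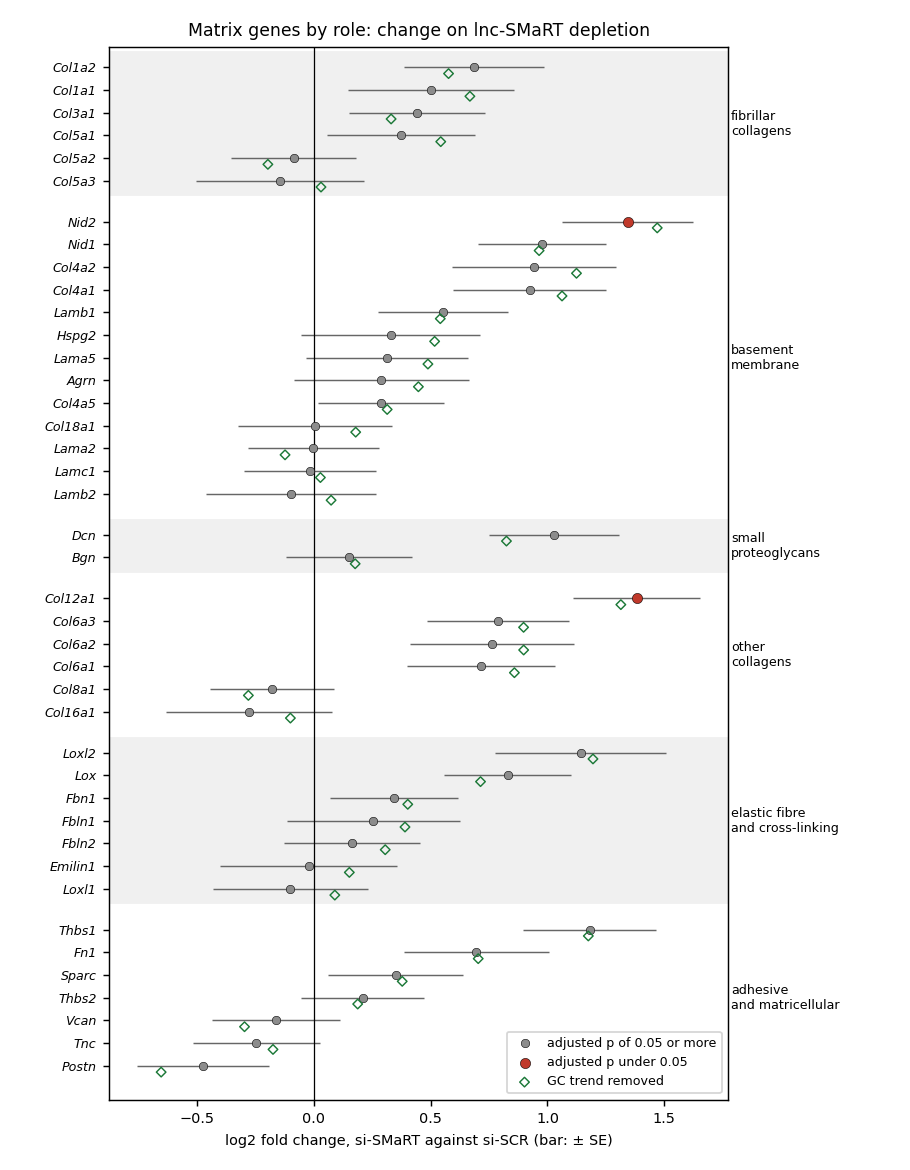
Log2 fold change of si-SMaRT against si-SCR for the 41 tested members by role, with bars of ± 1 SE from limma over 2 samples a group and open diamonds for the same value after the GC trend was removed. Nid2 at 1.34 and Col12a1 at 1.38 are the 2 members past the threshold, and 29 of the 41 points lie above 0.

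Fibrillar collagens, basement membrane genes and small proteoglycans were also compared as sums. The 6 listed fibrillar collagens summed to 582 and 668 RPKM in si-SCR 1 and 2 and 1049 and 643 RPKM in si-SMaRT 1 and 2, which was 1.68 and 1.03 times the control mean in si-SMaRT 1 and 2. The 14 listed basement membrane genes summed to 162 and 206 RPKM in si-SCR 1 and 2 and 350.0 and 197 RPKM in si-SMaRT 1 and 2, or 1.9 and 1.07 times the control mean. The 3 listed small proteoglycans summed to 100.5 and 101 RPKM in si-SCR 1 and 2 and 151 and 188 RPKM in si-SMaRT 1 and 2, or 1.5 and 1.87 times the control mean. In si-SMaRT 1 all 3 sums were above the controls, but in si-SMaRT 2 the fibrillar and basement membrane sums lay between the controls and only the small proteoglycan sum was above them. Taken instead as a share of all RPKM in a sample, the fibrillar collagens were 0.11% and 0.139% in si-SCR and 0.245% and 0.166% in si-SMaRT, and the basement membrane genes 0.0306% and 0.043% against 0.0816% and 0.0508%. On that scale both si-SMaRT samples lay above both controls for both groups, with si-SMaRT 2 at 1.33 and 1.38 times the control mean. The summed RPKM of all rows was lower in both si-SMaRT samples than in both controls, so a gene of unchanged RPKM also gained share. The small proteoglycan sum follows Dcn, and without Dcn it was 0.990 times the control mean in si-SMaRT 2. The median log2 fold changes of the tested genes, 0.41, 0.31 and 0.59 (the last over 2 genes), were not tested against each other. Without si-SMaRT 1 the fibrillar and basement membrane medians turned to -0.13 and -0.0198, and the small proteoglycan median was 0.65.

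The other collagens summed to 2.10 and 1.17 times the control mean in si-SMaRT 1 and 2, the elastic fibre and cross-linking genes to 1.48 and 1.40 times, and the adhesive and matricellular genes to 1.47 and 1.23 times. All 43 listed members summed to 2066 and 2415 RPKM in si-SCR 1 and 2 and 3575 and 2681 RPKM in si-SMaRT 1 and 2. The share of the fibrillar collagens in that total was 28.2% and 27.6% in si-SCR and 29.3% and 24.0% in si-SMaRT. The basement membrane genes held 7.84% and 8.52% in si-SCR and 9.79% and 7.34% in si-SMaRT.

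**Figure D4:**
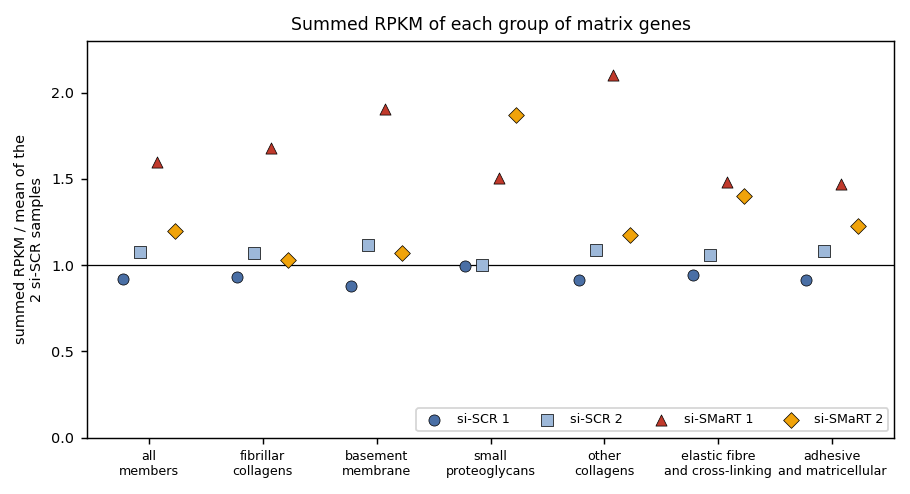
Summed RPKM of the listed members of each role group in each sample, divided by the mean of the 2 si-SCR samples, on an axis that starts at 0. The si-SMaRT 1 sums lie at 1.47 to 2.10 times the control mean, and the si-SMaRT 2 sums of fibrillar collagens and basement membrane genes lie between the 2 controls.

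The difference between the si-SMaRT samples followed the GC content of the members' exons. Over the 41 tested members the Spearman rho between GC content and the log2 difference of si-SMaRT 2 and si-SMaRT 1 was -0.856, close to the value of all genes given above, and for the difference of the 2 si-SCR samples it was 0.466. These are descriptions across genes that share the same 4 libraries. All 16 members over 55% GC were higher in si-SMaRT 1 than in si-SMaRT 2, by 1.71 to 2.79 times. The 6 members that were higher in si-SMaRT 2 had at most 51.9% GC and included Dcn, Lox and Postn. The median GC content was 52.0% over the tested members, 55.8% over the basement membrane genes, 51.2% over the fibrillar collagens and 49.1% over all genes. The median difference between si-SMaRT 2 and si-SMaRT 1 of the members over 55% GC was -1.22 on the log2 scale, and that of all genes in this range was -0.74. The members' median lay below that of all genes in the other 3 ranges too, at 0.21 against 0.52 under 45% GC, -0.29 against 0.11 from 45% to 50% and -0.41 against -0.32 from 50% to 55%.

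Once the dependence on GC content had been taken out of each sample, 11 members passed the test, 10 higher and 1 lower, where 4.36% of all genes were called (1.79% higher and 2.58% lower). The 8 members called higher here and not in the test above were Col4a1, Col4a2, Nid1, Col6a1, Col6a3, Dcn, Lox and Thbs1. Over the 15 alternatives the lowest adjusted p of each of the 11 members was at most 0.00592 and the highest was 1.00, reached without a si-SCR sample. The groups did not overlap in 22 members as higher, against 27.5% of all genes, and in 3 as lower, against 29.3%. The median log2 fold change of the members was then 0.40. No fibrillar collagen passed in this fit, with the smallest adjusted p of 0.104 for Col5a1. The fibrillar genes whose groups stood apart changed. The groups of Col1a1 and Col5a1 no longer overlapped, whereas those of Col1a2 and Col3a1 now did.

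**Figure D5:**
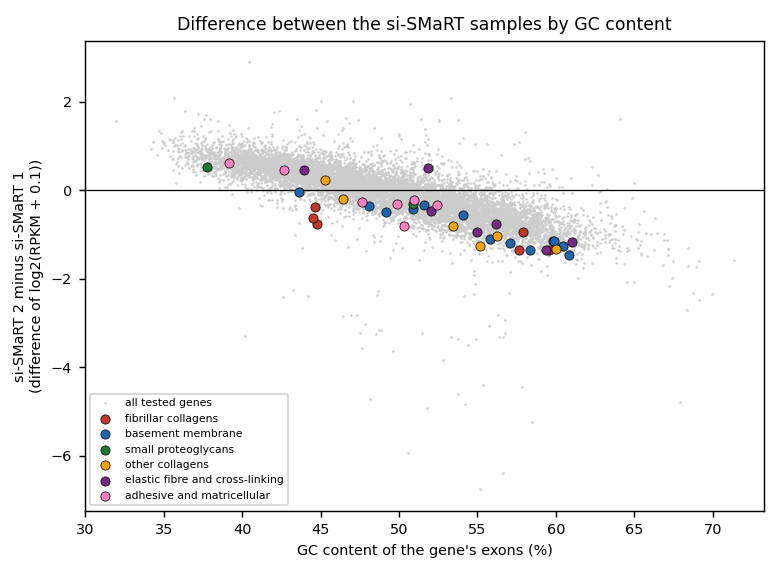
Difference between si-SMaRT 2 and si-SMaRT 1 in log2(RPKM + 0.1) against the GC content of each gene's exons, with all tested genes in grey and the 41 tested members coloured by role. The members' median falls from 0.21 in the 8 under 45% GC to -1.22 in the 16 over 55% GC, below the medians of all genes in these ranges, 0.52 and -0.74.

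Of 30 genes listed for the synthesis and processing of collagen, 23 were tested, with a median log2 fold change of 0.024. Leprel1, a prolyl 3-hydroxylase of collagen, was the 1 gene that passed, at 0.212 and 0.228 RPKM against 1.4 and 1.05 RPKM (log2 fold change 2.04 ± 0.36 (SE), limma adjusted p = 0.0143), and 0 fell. At an unadjusted p under 0.05 there were 2 higher and 0 lower. The control mean of Leprel1, 0.22 RPKM, was in the range of the lowest members, which rest on few reads. A list of 96 other matrix genes had 37 tested, of which 3 rose and 1 fell, with a median log2 fold change of 0.34. Aspn, which encodes asporin, a small leucine-rich proteoglycan of the same family as decorin, was 8.42 and 6.997 RPKM against 18.2 and 39 RPKM (log2 fold change 1.78 ± 0.33 (SE), limma adjusted p = 0.0187), with si-SMaRT 2 the higher of its pair as for Dcn. Prelp, another member of that family, was 0.35 and 0.509 RPKM against 2.03 and 1.39 RPKM (log2 fold change 1.77 ± 0.35 (SE), limma adjusted p = 0.03002). Its control mean, 0.429 RPKM, was also low. Mgp, the matrix Gla protein that inhibits calcification, was 47 and 45.9 RPKM against 147 and 148 RPKM (log2 fold change 1.66 ± 0.26 (SE), limma adjusted p = 0.00835). Mfap4, a microfibril-associated glycoprotein, was 5.39 and 3.2 RPKM against 1.11 and 1.2 RPKM (log2 fold change -1.77 ± 0.32 (SE), limma adjusted p = 0.0187).

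Markers of other cells and cell states are given here for each sample, and their part in the matrix results was not tested. The 10 listed markers of differentiating muscle summed to 11119 and 11175 RPKM in si-SCR and 7707 and 5185 RPKM in si-SMaRT. The sum was lowest in si-SMaRT 2, whereas the summed matrix members were highest in si-SMaRT 1. Of these 10 markers, 0 passed the test, and 4 were lower and 1 higher at an unadjusted p under 0.05. The most abundant, Acta1, was 2778 and 3239.8 RPKM against 2553 and 1274 RPKM (log2 fold change -0.73 ± 0.35 (SE), limma adjusted p = 0.558), and Tnnc2 was 2643 and 2249 RPKM against 1235 and 853 RPKM (log2 fold change -1.25 ± 0.31 (SE), limma adjusted p = 0.0994). By log2 fold change 8 of the 10 were below 0 and 2 above 0. Those above 0, named after their values were seen, were Myh8 and Myod1. Myh8 was 12.9 and 15.1 RPKM against 23.6 and 19.0 RPKM, and Myod1 was 54.8 and 70.1 RPKM against 95.9 and 57.7 RPKM. The 7 listed markers of undifferentiated or reserve myoblasts summed to 121 and 136 RPKM in si-SCR and 177 and 171 RPKM in si-SMaRT, and Id3 was the 1 that passed, at 2.91 and 3.2 RPKM against 12.3 and 7.26 RPKM (log2 fold change 1.60 ± 0.30 (SE), limma adjusted p = 0.0232). Most of that sum was Sdc4 at 69.4 and 90.4 RPKM against 119 and 111 RPKM, and Myf5 was 29.6 and 22.2 RPKM against 18.8 and 34.8 RPKM. The log2 fold change was above 0 for 4 of the 7 and below 0 for 3, Myf5, Id1 and Cd34. Id1 was 12.5 and 14.1 RPKM against 16.5 and 10.5 RPKM, and Cd34 was 1.69 and 1.07 RPKM against 1.32 and 1.27 RPKM. The 6 of 9 listed fibroblast and mesenchymal markers summed to 15.1 and 18.5 RPKM in si-SCR and 29.9 and 19.7 RPKM in si-SMaRT, with 0 of 4 tested past the threshold. Most of that sum was Pdgfrb at 10.4 and 13.6 RPKM against 23.6 and 12.6 RPKM, and Prrx1 was 2.38 and 2.4 RPKM against 4.03 and 5.34 RPKM. In the other direction, Twist2 was 0.921 and 0.936 RPKM against 0.53 and 0.462 RPKM and Pi16 0.555 and 0.586 RPKM against 0.378 and 0.333 RPKM, 2 markers named after their values were seen, and Thy1, Dpt and Tcf21 had no row. No endothelial marker of 6 had a row, and of 8 leukocyte markers Cd68 and Itgam had one, summing to 1.63 and 1.34 RPKM in si-SCR and 1.34 and 1.14 RPKM in si-SMaRT.

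The pull-down libraries gave no peak on a member. The deposited lists held 345 peaks for the lnc-SMaRT pull-down and 336 for the LacZ pull-down, and 0 of each overlapped an exon of the 48 genes by 1 base or more on the same strand. The counts were also 0 on either strand, with an overlap of at least 50% of the peak and with peaks at p under 0.001. Each pull-down is 1 library, and a list of peaks gives no value for a gene without one. The share of all genes with a peak is not given here. With so few peaks in each whole list, the counts of 0 cannot be read as a trait of these genes.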

How the data were processed

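RNA of 4 C2C12 samples was sequenced from stranded, rRNA-depleted libraries. The authors trimmed reads with Trimmomatic, used Bowtie 2 to discard those from rRNA and tRNA, ran TopHat2 on GRCm38, counted alignments on Ensembl 77 genes with HTSeq, removed genes with low CPM and deposited RPKM values from edgeR, scaled by TMM. The peak lists deposited by the authors give 1 Piranha p-value per peak of the pull-downs. The study describes peaks of each pull-down with the input as covariate and peaks of lnc-SMaRT against LacZ, and the lists do not state which of these the lnc-SMaRT list holds.

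The deposited values are RPKM, so limma 3.58.1 in R 4.3.3 was run on log2(RPKM + 0.1) over the 11086 genes with a mean of at least 0.5 RPKM, with a trended prior and Benjamini-Hochberg adjustment over all genes at 0.05. Fold changes are on this scale, which understates the change of low genes. Reads were worked out from the steps of the RPKM values for 11630 of 11642 rows (tolerance 0.002 reads), used for voom and for the reads printed, and cover counting error only. RPKM depends on the gene length that the authors used. GC content and positions came from GENCODE M21 on GRCm38, and the GC trend of each sample was removed by loess with span 0.3. Promoters came from RefSeq and overlaps from bedtools 2.31.1. The scripts were tested on simulated data. The simulated reads for the limma fit had no dependence on GC content. That test therefore does not cover the GC difference between the si-SMaRT samples.

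The members, role groups and other lists were chosen with earlier results of these data known. Genes with statistics were the members past the threshold, in each group the 2 most abundant, the 2 of largest rise and the 2 of largest fall, the chains of the ratios, and genes of the other lists past the threshold or among the 2 most abundant of a marker list. Other members are given by value only. The alternatives were other pseudocounts and filters, quantile normalization, no prior trend, replicate blocks, GC correction, voom and leaving out each sample.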

Additional observations from a re-analysis of the deposited data

How the results depend on the processing

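The 56 genes called (20 higher) were 49 to 69 under other pseudocounts and filters. They became 37 (13 higher) with quantile normalization, 474 (194 higher) with the GC trend removed and 106 (33 higher) with voom, and 24 to 2908 without 1 sample. The replicate numbers of the labels were not used as pairs in the main fit. The deviations of same-numbered samples correlated at -0.36 (Pearson) and -0.43 (Spearman) over 11086 genes. The differences within the groups also followed GC content in opposite directions, at a Spearman rho of 0.355 in si-SCR and -0.845 in si-SMaRT. The correlation therefore cannot decide whether same-numbered samples were paired. With the replicate block 96 genes were called (19 higher), and with the replicate block and the GC trend removed 97 (35 higher). With the pairs crossed, a setting chosen after seeing the data, 487 genes and 9 members were called. The 2 members called became 1 without the filter on low values and 1 without the prior trend (Col12a1 both times), 0 with quantile normalization (15 higher and 0 lower at an unadjusted p under 0.05), 11 with the GC trend removed, and 0 to 20 without 1 sample. The median log2 fold change without 1 sample was 0.0709 to 0.73 for all members, -0.13 to 0.80 for fibrillar collagens and -0.0198 to 0.88 for basement membrane genes. The small proteoglycan median was 0.69 with quantile normalization and 0.50 with the GC trend removed, with or without the replicate block. The log2 fold change turned sign without 1 sample for 18 of 41 members, and the share of all genes that did so is not given here. Of the 18 members, 8 (Col5a1, Lama2, Lama5, Hspg2, Agrn, Fbln1, Fbln2 and Vcan) are given in the report by value only, and the others ranged -0.17 to 1.17 for Col1a1, -0.27 to 0.0961 for Col5a2, -0.81 to 0.53 for Col5a3, -0.57 to 0.58 for Col18a1, -0.77 to 0.57 for Lamb2, -0.24 to 0.21 for Lamc1, -0.0298 to 0.33 for Bgn, -0.94 to 0.39 for Col16a1, -0.69 to 0.65 for Emilin1 and -0.69 to 0.48 for Loxl1. With the GC trend removed, with or without the replicate block, Col5a3 was 0.0309, Lamb2 0.0741, Lamc1 0.0284, Emilin1 0.15 and Loxl1 0.0901. Col5a2 was 0.0555 with quantile normalization and Emilin1 0.0154 with a pseudocount of 1. With all 4 samples none of these genes was past the threshold, and the causes were not tested. Loxl2, Fmod and Lama4, with 6 to 73 reads a sample, are limited by depth.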
